A study of Mus musculus with 8 samples.

Results

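The proteasome genes of the mouse were described across RNA-seq libraries of sorted cortical cells with or without a conditional deletion of the DNA methyltransferase gene Dnmt1, at 6 and 18 months of age. All protein-coding genes whose symbol is Psma, Psmb, Psmc, Psmd or Psme followed by a number and at most 1 letter were taken, which gave 44 of the 55573 gene IDs in the deposited count files. By role they were 8 alpha subunits of the 20S core, 7 constitutive beta subunits of the core, 4 beta subunits of the immunoproteasome and thymoproteasome, 6 ATPases of the 19S cap, 11 other cap subunits, 3 assembly chaperones that carry Psmd names, and 5 activators. The symbols and the classes did not use the counts. Psma1 to Psma7 and Psmb1 to Psmb7, the 14 constitutive core subunits, and the 17 cap subunits are called core and cap, 31 genes in all.

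The proteasome degrades proteins that carry ubiquitin chains. Its 20S core is a barrel of stacked alpha and beta rings, and the proteolytic sites of the subunits encoded by Psmb5, Psmb6 and Psmb7 face its inner chamber. The 19S cap binds ubiquitin, removes it, unfolds the substrate with its ring of ATPases and feeds it into the core. Interferon replaces the catalytic subunits with those of Psmb8, Psmb9 and Psmb10, which favours peptides for presentation on MHC class I, and Psme1 and Psme2 form an activator ring that binds the core in place of the cap. Genes of core and cap are commonly induced together when proteasome activity is short, through the transcription factor encoded by Nfe2l1.

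The KO groups were PV-Cre/tdTomato/Dnmt1 loxP2 mice of 18 and 6 months, and the WT groups were PV-Cre/tdTomato/Dnmt1 wild-type mice of the same ages, all on a C57BL/6 background. Every group thus carried the Cre driver under the parvalbumin gene and the red fluorescent reporter, and the floxed allele came from a B6;129Sv stock with loxP sites around exons 4 and 5 of Dnmt1. Red cells were sorted from dissociated cortex after pooling of 6 WT and 6 KO mice, and each group had 2 libraries that the design text calls technical replicates. Tests between groups therefore measure the spread between libraries of a pool and not the spread between animals.

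Library totals ranged from 6008175 to 13551218 counts, and proteasome genes held between 0.157% and 0.194% of them. Levels are given as CPM, the usual depth-scaled counts, after TMM scaling. Dnmt1 stood at 74.3 and 76.6 CPM in KO against 80.8 and 81.1 CPM in WT libraries at 18 months, and at 77.2 and 75.2 CPM in KO against 97.9 and 103.6 CPM in WT libraries at 6 months. It was lower in KO at 6 months (log2 fold change -0.40, edgeR adjusted p = 0.0001) and did not pass the test at 18 months (-0.10, edgeR adjusted p = 0.281). At both ages the counts cover all exons and not only the floxed ones. Pvalb, the defining marker of the sorted cell type, had 6 reads over all 8 libraries. The 16 oligodendrocyte markers summed to between 14679 and 43129 CPM. The WT libraries of 6 months stood apart, with correlations of log2 CPM to libraries of other groups between 0.9 and 0.951, against 0.958 to 0.977 between libraries of the remaining 3 groups.

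Of the 44 genes, 40 had enough reads to be tested. The untested genes were Psmb9 with 54 reads in all, Psma8, an alpha subunit known from the testis, with 18, Psme2b with 17 and Psmb11, the beta subunit of the thymic proteasome, with 12. Per kilobase of the principal transcript, and as a mean over the 8 libraries, the highest levels were those of Psmb6 (80.9 CPM per kilobase), the ATPase gene Psmc3 (56.8), the alpha subunit gene Psma7 (54.9), Psmb4 (49.7) and the ubiquitin receptor gene Psmd4 (48.4). Psmb10 stood at 7.07 CPM per kilobase and Psmb8 at 0.628, the lowest among tested genes. Psmd10 (3.78), Psma5 (4.54), Psme2 (4.78), Psmb5 (6.06) and Psmd5 (6.33) were also low. Of the 50-base words of Psma5, Psme2 and Psmb5, 55.4%, 59.3% and 57.1% also occur in transcripts of other genes, against 0% for Psmd10 and 0.644% for Psmd5, and Psmb3 with 55.8% stood at 16.1 CPM per kilobase. The sources used here do not say how reads from such stretches were counted. Psmb3 (55.8%) and Psme2b (69.3%) were the other genes with as large a shared part, 20 of the 44 genes shared none, and exons of 13 genes overlap those of another gene.

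The genes are spread over 16 chromosomes, with 9 of them on chromosome 11 and 6 on chromosome 14. Neighbours lie close at 3 places in mm10: Psme1 and Psme2 are 5911 bases apart, Psmb5 and the thymic Psmb11 3410, and Psmb9 and Psmb8, within the MHC region, 9956. In mm10 with GENCODE M21, Psmb6 lies at chr11:70525367-70527858, Psmc3 at chr2:91054009-91066369, Psmc2 at chr5:21785283-21803787 and Psmb10 at chr8:105935735-105938444.

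Promoter windows from RefSeq on GRCm38.p6, 250 bases before to 50 after a start site, were found for 37 of the genes, 40 windows in all. Psma8, Psmb1, Psmb2, Psmb7, Psmc3, Psmd3 and Psmd7 had no window. They were searched on both strands for TGACNNNGC, the core of the antioxidant response element that Nfe2l1 and Nfe2l2 bind, for CCAAT, the element of NF-Y, and for the interferon-stimulated response element. The first was in 15.0% of the members' windows, against 12.4% of all 32851 windows, the second in 35.0% against 37.4%, and the third in 4 windows, which is 10.0% against 3.44%. Those 4 windows were of Psmd4, Psmd9, Psmb3 and Psme1, and no match of 1 motif overlapped that of another. Of the genes called lower in KO at 18 months, 19 had a window, and the antioxidant core was in 14.3% of their 21 windows, those of Psmb6, Psmc6 and Psmd9. These windows are shown as those of called genes that held the motif, a share near the 12.4% of all windows, and the call of Psmd9 was not stable, as given below. The motif was also in windows of Psmb5, Psmd12 and Psme4, which were not called at 18 months. The window of Psme1 is shown because it alone among the immunoproteasome subunits and their activator held the interferon element. The capitals mark the antioxidant core in Psmb6 (chr11:70525107-70525406, plus strand, first base at -9 from the start site), Psmc6 (chr14:45329574-45329873, plus, -227, motif on the opposite strand) and Psmd9 (chr5:123227940-123228239, plus, -31, where the interferon element on the same strand from -159 is left in lower case), and the interferon element in Psme1 (chr14:55578244-55578543, plus, 10, motif on the opposite strand).
Psmb6: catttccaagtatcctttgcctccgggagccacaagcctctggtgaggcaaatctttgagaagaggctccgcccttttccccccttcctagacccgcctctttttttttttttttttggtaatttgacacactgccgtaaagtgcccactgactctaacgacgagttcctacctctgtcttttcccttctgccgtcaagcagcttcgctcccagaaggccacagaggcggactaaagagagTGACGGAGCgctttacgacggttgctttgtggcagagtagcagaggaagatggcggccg
Psmc6: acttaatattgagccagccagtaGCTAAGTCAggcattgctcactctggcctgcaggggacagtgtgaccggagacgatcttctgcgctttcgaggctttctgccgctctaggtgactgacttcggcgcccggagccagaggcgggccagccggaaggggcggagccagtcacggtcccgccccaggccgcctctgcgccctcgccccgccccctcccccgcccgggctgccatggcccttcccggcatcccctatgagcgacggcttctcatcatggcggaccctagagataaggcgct
Psmd9: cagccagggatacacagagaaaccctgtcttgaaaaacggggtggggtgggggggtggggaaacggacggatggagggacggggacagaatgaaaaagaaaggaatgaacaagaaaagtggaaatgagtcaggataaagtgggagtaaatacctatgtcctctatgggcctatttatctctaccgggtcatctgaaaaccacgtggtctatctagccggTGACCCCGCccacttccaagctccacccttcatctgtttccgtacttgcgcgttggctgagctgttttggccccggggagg
Psme1: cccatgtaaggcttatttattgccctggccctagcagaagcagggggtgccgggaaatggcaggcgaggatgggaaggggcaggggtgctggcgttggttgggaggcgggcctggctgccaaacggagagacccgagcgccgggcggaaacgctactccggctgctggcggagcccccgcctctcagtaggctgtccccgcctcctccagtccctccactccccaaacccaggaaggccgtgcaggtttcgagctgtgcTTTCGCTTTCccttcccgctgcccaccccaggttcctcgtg
A match describes these letters only and says nothing about binding in these cells.

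At 18 months, core and cap genes were lower in KO than in WT cells. Of the 40 genes tested, 24 fell and 0 rose in KO (0 higher at an unadjusted p under 0.05, and 0 with DESeq2) (edgeR's quasi-likelihood test, adjusted p under 0.05 over all 18205 genes), where 17.4% of all genes were called lower and 14.7% higher. Among core and cap genes 23 of 31 fell, and the median log2 fold change of the 40 genes was -0.35, against 0.00 over all genes tested. Summed over core and cap, levels were 1328 and 1365 CPM in the KO libraries against 1695 and 1791 CPM in the WT libraries, a ratio of 0.772. Both KO libraries were below both WT libraries in 32 of the 40 genes, which was so for 34.0% of all genes. In bulk RNA of a sorted pool, fewer cells with high levels and less RNA per cell cannot be told apart. Without WT replicate 2 of 18 months, the deepest library, the median of the 40 genes was -0.29, against 0.015 over all genes. Fewer then passed the test, both of the 40 and of all genes. With unscaled library totals 14 fell and 1 rose, where 10.2% of all genes were called lower and 23.4% higher. The median of all genes then moved to 0.141, and that of the 40 genes stayed -0.35 below it.

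**Figure D1:**
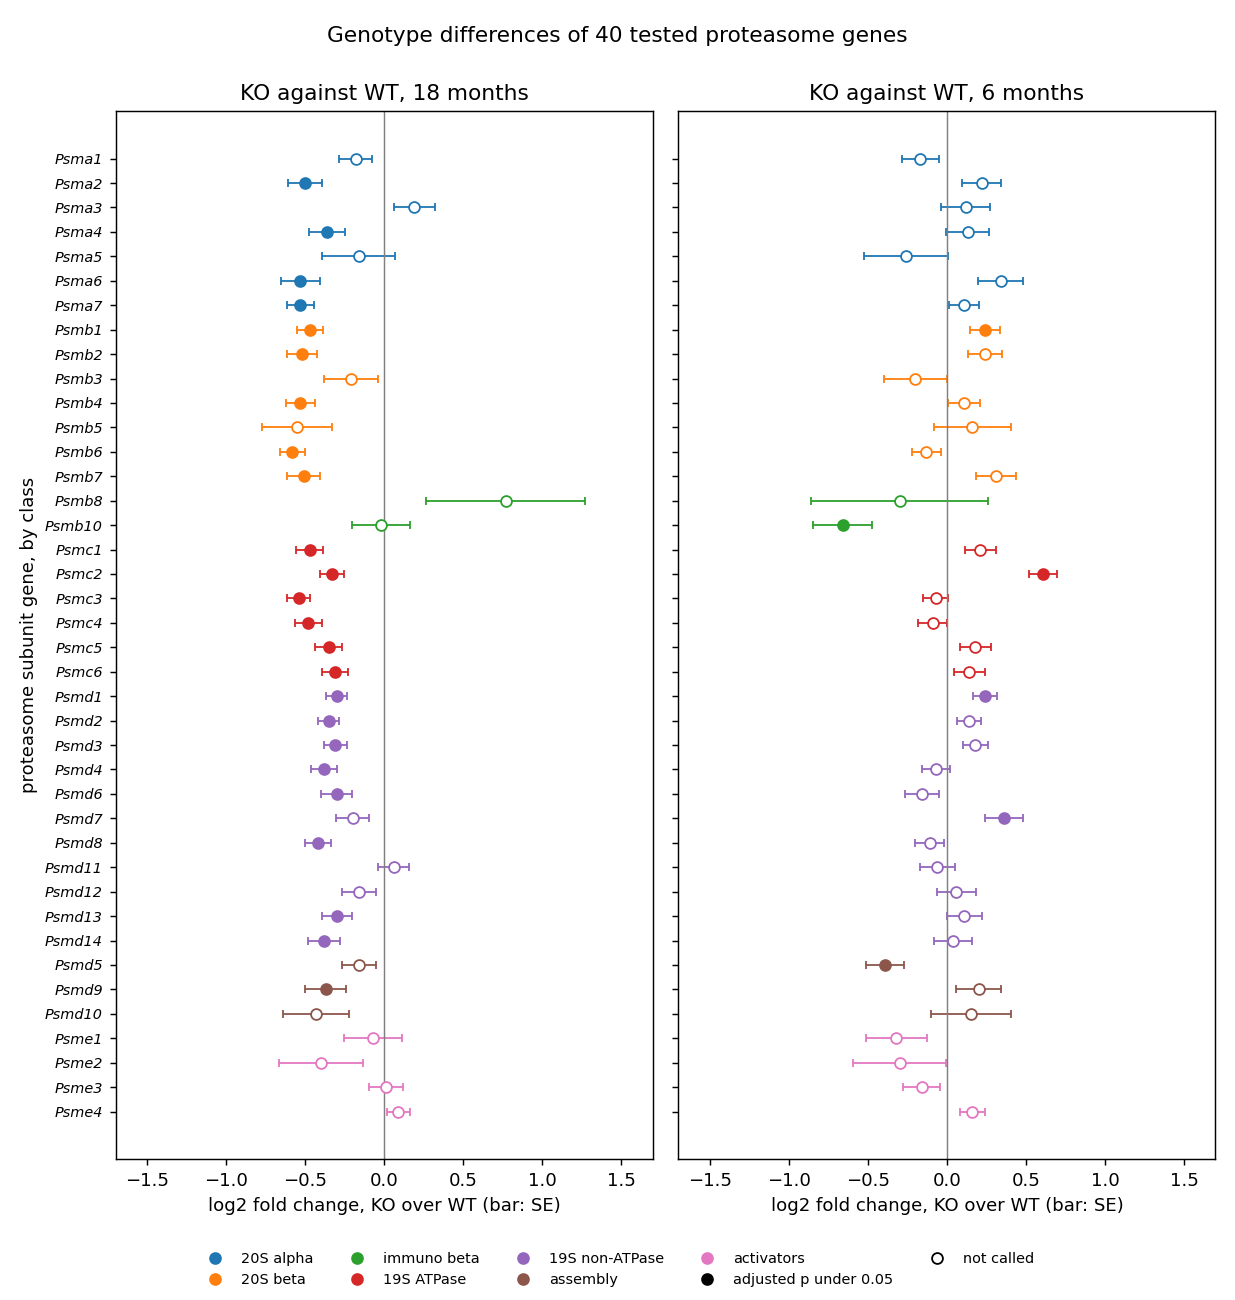
Log2 fold change of KO over WT (points, with SE bars) for the 40 tested proteasome genes by class, at 18 months (left) and 6 months (right). Filled points passed an adjusted p of 0.05. At 18 months 24 points are filled and all of them lie left of 0, and at 6 months 6 are filled, 4 of them right of 0.

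All 7 constitutive beta subunits had both KO libraries below both WT libraries at 18 months, and 5 of them passed the test, with a class median of -0.52 on the log2 scale. Psmb6, the caspase-like subunit, stood at 49.5 and 55.5 CPM in KO against 73.2 and 82.2 CPM in WT libraries and was 1.49-fold lower (log2 -0.58, SE 0.0815, edgeR adjusted p = 5.79e-06). Psmb7, the trypsin-like subunit, had 28.1 and 29.2 CPM in KO against 41.6 and 40.2 CPM in WT libraries (log2 -0.51, SE 0.105, edgeR adjusted p = 0.000493), although 405 of its exon bases, 11.8%, are shared with Nek6 on the opposite strand. Neither gene overlapped between the groups. Psmb5, the chymotrypsin-like subunit and the target of clinical proteasome inhibitors, had 3.97 and 4.05 CPM in KO against 5.39 and 6.24 CPM in WT libraries, which did not pass (log2 -0.55, edgeR adjusted p = 0.0625). Psmb4, another constitutive beta subunit, had 47.0 and 54.5 CPM in KO against 66.2 and 79.3 CPM in WT libraries (log2 -0.53, edgeR adjusted p = 5.79e-05). Psmb2 fell to 31.4 and 35.5 CPM in KO, against 46.9 and 48.8 CPM in WT libraries (log2 -0.52, edgeR adjusted p = 0.000106), and Psmb1 by 0.47 on the log2 scale. Psmb3, with 55.8% of its 50-base words shared with other genes, did not pass (-0.21).

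Among the alpha subunits, which form the outer rings and the gate of the core, 4 of 7 tested genes fell, with a median of -0.36. Psma7 had 43.4 and 40.6 CPM in KO against 57.9 and 62.7 CPM in WT libraries, 1.44-fold lower (log2 -0.53, SE 0.0846, edgeR adjusted p = 3.09e-05). Psma6 had 35.7 and 30.8 CPM in KO against 47.3 and 49.0 CPM in WT libraries (log2 -0.53, edgeR adjusted p = 0.00136). Psma2 had 26.2 and 30.2 CPM in KO against 37.4 and 41.8 CPM in WT libraries (log2 -0.50, edgeR adjusted p = 0.00088). The groups did not overlap for any of these genes. The call of Psma2 was lost without WT replicate 2 (log2 -0.39, edgeR adjusted p = 0.0534). Psma4 fell by 0.36, and Psma1 and Psma5 did not pass (-0.18 and -0.16). Psma3 was the only core gene with a positive estimate, with 25.9 and 20.5 CPM in KO against 19.1 and 21.4 CPM in WT libraries, which overlap (log2 0.19, edgeR adjusted p = 0.279).

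All 6 ATPases of the cap fell at 18 months, between -0.31 and -0.54 on the log2 scale, and their groups did not overlap. Psmc3 had the smallest adjusted p among all proteasome genes in this comparison, with 73.1 and 78.0 CPM in KO against 106.6 and 112.8 CPM in WT libraries (log2 -0.54, SE 0.0731, edgeR adjusted p = 2.94e-06). Psmc4 had 48.9 and 54.3 CPM in KO against 66.7 and 76.0 CPM in WT libraries (log2 -0.48, edgeR adjusted p = 9.63e-05). Psmc1 had 47.8 and 46.8 CPM in KO against 59.9 and 70.4 CPM in WT libraries (log2 -0.47, edgeR adjusted p = 0.000125). These ATPases thus showed folds of 1.46, 1.39 and 1.39. Psmc2 fell by 0.33, Psmc5 by 0.35 and Psmc6 by 0.31, and the call of Psmc2 was lost without WT replicate 2 (log2 -0.27, edgeR adjusted p = 0.0517). Exons of Psmc3 overlap those of Slc39a13 on the opposite strand over 8.2% of their bases.

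Of the 11 other cap subunits, 8 fell, with a median of -0.30. The scaffold subunit Psmd2, where ubiquitin-like shuttle proteins dock, had 89.8 and 93.9 CPM in KO against 111.7 and 122.2 CPM in WT libraries (log2 -0.35, SE 0.0673, edgeR adjusted p = 0.00022). Psmd8 had 43.5 and 49.3 CPM in KO against 60.7 and 63.0 CPM in WT libraries (log2 -0.42, edgeR adjusted p = 0.000329). Psmd4, a receptor for ubiquitin chains, had 54.5 and 60.3 CPM in KO against 75.7 and 73.5 CPM in WT libraries (log2 -0.38, edgeR adjusted p = 0.000802). None of these genes overlapped between groups. The deubiquitinase Psmd14 fell by 0.38, Psmd3 by 0.31, and Psmd1, Psmd6 and Psmd13 by 0.30 each. Psmd7, the partner of Psmd14, and Psmd12 did not pass (-0.20 and -0.16), nor did Psmd11, which clamps cap and core together, with 42.3 and 48.5 CPM in KO against 46.1 and 41.3 CPM in WT libraries (log2 0.06, edgeR adjusted p = 0.681). The chaperones of the ATPase ring gave smaller or noisier differences. Psmd9 fell to 19.8 and 20.4 CPM in KO, against 21.6 and 29.5 CPM in WT libraries (log2 -0.37, edgeR adjusted p = 0.0294), and without WT replicate 2 it was at -0.08 (edgeR adjusted p = 0.789). That call was also lost without KO replicate 1 or 2 of 18 months or KO replicate 2 of 6 months (adjusted p = 0.129, 0.0721 and 0.0526). Psmd5 (-0.16) and Psmd10 (-0.43, edgeR adjusted p = 0.123) did not pass.

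**Figure D2:**
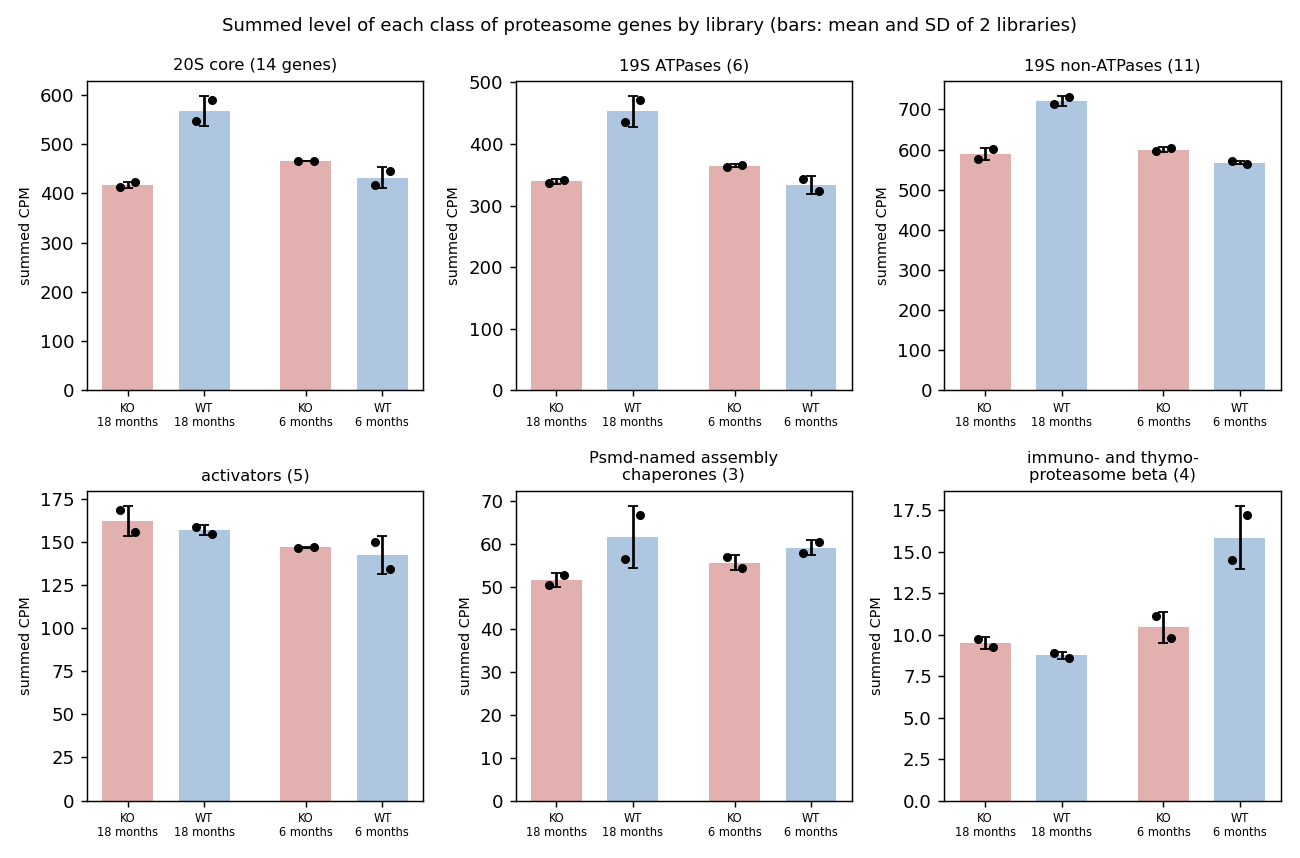
Summed CPM of each class of proteasome genes (y axis from 0) in KO and WT at 18 and at 6 months. Points are libraries and bars show mean and SD of 2 libraries. WT at 18 months was highest for the 20S core (567.8 ± 30.4), the ATPases (453.2 ± 24.9) and the other cap subunits (721.7 ± 12.4), and WT at 6 months for the immunoproteasome and thymoproteasome beta subunits (15.9 ± 1.93).

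The ratio of cap to core reads varied little beside the levels themselves. Reads of the 17 cap genes over those of the 14 core genes stood at 2.21 and 2.23 in KO and 2.10 and 2.04 in WT libraries of 18 months, and at 2.06 and 2.09 in KO and 2.20 and 1.99 in WT libraries of 6 months. Summed over the 20S core, levels averaged 417.6 ± 6.49 CPM in KO against 567.8 ± 30.4 CPM in WT at 18 months, and 465.6 ± 0.585 CPM in KO against 431.4 ± 21.4 CPM in WT at 6 months (SD, n = 2 libraries each). The corresponding sums of the cap were 928.5 ± 19.7 CPM in KO against 1175 ± 37.4 CPM in WT at 18 months, and 964.4 ± 8.49 CPM in KO against 900.8 ± 18.7 CPM in WT at 6 months. WT at 18 months thus had the highest mean in both core and cap. It had the highest of the 4 group means in 28 of the 40 genes and in 27 of the 31 core and cap genes, against 27.6% of all genes tested.

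Between 6 and 18 months, core and cap genes rose in WT cells. Of the 40 genes, 23 rose and 2 fell, against 28.2% and 30.8% of all genes called higher and lower, and the median log2 fold change was 0.30 against -0.04 over all genes. Among core and cap genes 22 of 31 rose and 0 fell by edgeR (0 lower at an unadjusted p under 0.05). Both libraries of 18 months lay above both of 6 months in 27 of the 31 and below in 0. This arrangement was seen in 29 of the 40 genes, against 37.4% of all genes. Summed over core and cap, levels were 1695 and 1791 CPM in WT libraries of 18 months against 1330 and 1334 CPM in those of 6 months, a ratio of 1.31. This comparison shares the WT libraries of 18 months with the genotype comparison at that age, so the pair of results is not independent, and it rests on the WT libraries of 6 months that stood apart. Unscaled library totals, which moved the median of all genes to -0.139, gave 19 genes higher and 3 lower. Of all genes 24.0% were then called higher and 34.6% lower.

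Psmc2 showed the largest difference with age in WT, with 81.5 and 85.8 CPM at 18 months against 42.5 and 43.2 CPM at 6 months (log2 0.97, SE 0.0844, edgeR adjusted p = 5.43e-10). In KO cells it stood at 68.4 and 64.4 CPM against 66.8 and 64.1 CPM (log2 0.02, edgeR adjusted p = 0.859). Psmb7 rose to 41.6 and 40.2 CPM in WT at 18 months, against 22.1 and 28.4 CPM at 6 months (log2 0.69, edgeR adjusted p = 2.2e-05). Psma6 rose by 0.67 and Psmd1, the other scaffold of the cap, by 0.64 (106.6 and 109.9 CPM at 18 months against 70.5 and 68.9 CPM at 6 months, edgeR adjusted p = 4.88e-08). Smaller rises of Psmb6 (0.22), Psmc3 (0.20) and Psmd4 (0.21) passed the test but were lost without WT replicate 2 of 18 months (0.13, 0.16 and 0.23, edgeR adjusted p = 0.327, 0.185 and 0.0859). Psmb6 was also lost without either WT library of 6 months (adjusted p = 0.0555 and 0.0901), Psmc3 without WT replicate 2 of 6 months (0.223), and Psmd4 without WT replicate 1 of 6 or of 18 months (0.231 and 0.108). Psma2 rose by 0.40, a call lost without replicate 2 of either WT group (0.28 and 0.32, edgeR adjusted p = 0.0981 and 0.0849). Psmc4 (0.17), Psmd8 (0.09) and Psmb5 (0.06) did not pass.

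In KO cells the same age difference was small and mixed. At 18 against 6 months, 2 genes rose and 8 fell, against 13.8% and 17.9% of all genes called higher and lower, and the median was -0.10. The number that fell was thus near the share of all genes, and the number that rose was below it. Psmd11 rose to 42.3 and 48.5 CPM in KO at 18 months, against 35.2 and 35.3 CPM at 6 months (log2 0.36, edgeR adjusted p = 0.00788), and the activator gene Psme4 rose by 0.24. Those that fell were Psma2 (-0.31), Psma7 (-0.28), Psmb5 (-0.65), Psmb6 (-0.22), Psmc3 (-0.27), Psmd3 (-0.21), Psmd8 (-0.23) and Psmd9 (-0.39). None of the 9 calls among the genes given with library values held without each library in turn. Psmb5 had 3.97 and 4.05 CPM in KO at 18 months against 5.84 and 6.81 CPM at 6 months, without overlap (edgeR adjusted p = 0.0307), and was past 0.05 without either KO library of 6 months (0.0571 and 0.238) or of 18 months (0.147 and 0.094). The count of genes that fell was not stable: it was 0 with DESeq2, 0 with unscaled library totals where 5 rose, and 2 without a filter on low counts. It was also 2 and 0 without KO replicate 1 or 2 of 6 months, 1 without KO replicate 1 of 18 months and 5 without WT replicate 1 of 18 months. Summed over core and cap, KO levels were 1328 and 1365 CPM at 18 months against 1424 and 1436 CPM at 6 months. Across the 40 genes the age differences in KO and WT correlated with Pearson's r of 0.0719 and Spearman's rho of 0.166, a description over genes that share libraries and depth.

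**Figure D3:**
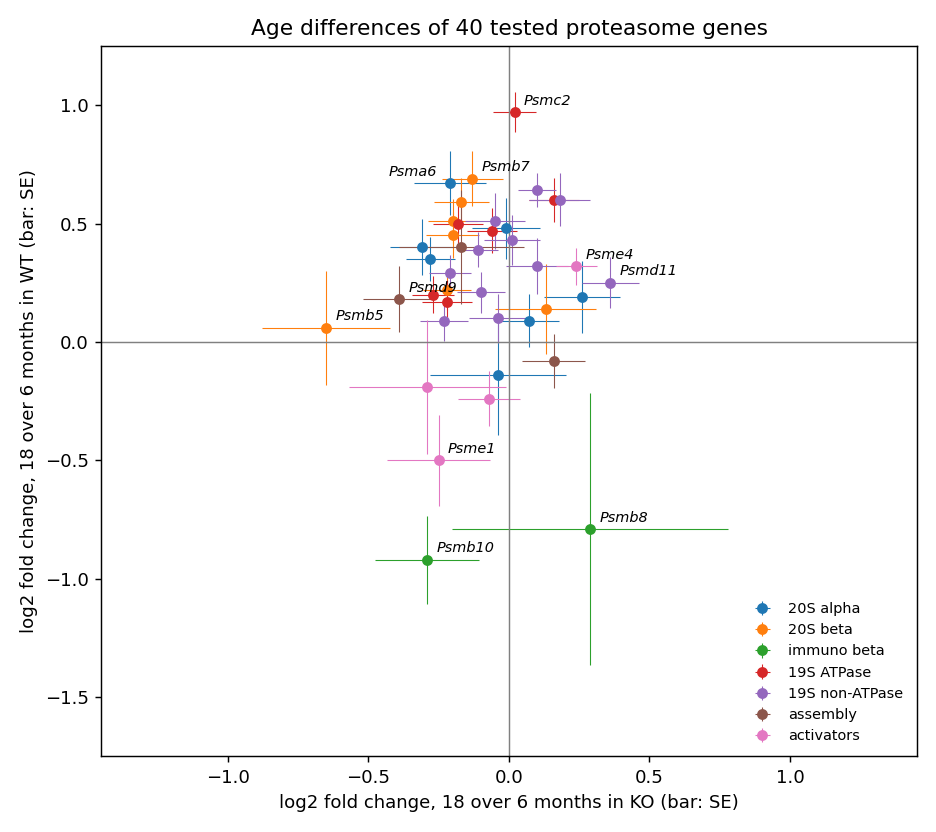
Log2 fold change of 18 over 6 months in KO (x axis) against the same in WT (y axis) for the 40 tested proteasome genes, coloured by class, with SE bars. Most core and cap genes lie above 0 on the WT axis and near 0 on the KO axis, and Psmb10 (-0.29 in KO, -0.92 in WT) and Psme1 (-0.25 and -0.50) lie below 0 on both.

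At 6 months the genotype difference was smaller and, where called in core and cap, in the other direction. Of the 40 genes, 4 rose and 2 fell in KO, against 19.2% and 19.6% of all genes, so fewer proteasome genes passed than genes in general, and the median was 0.11. Psmc2 rose most, with 66.8 and 64.1 CPM in KO against 42.5 and 43.2 CPM in WT libraries (log2 0.61, SE 0.0877, edgeR adjusted p = 4.23e-06). Psmd7 rose to 41.3 and 38.3 CPM in KO, against 33.4 and 28.6 CPM in WT libraries (log2 0.36, edgeR adjusted p = 0.0194), Psmd1 by 0.24 (edgeR adjusted p = 0.0125) and Psmb1 by 0.24 (edgeR adjusted p = 0.0498). Psmd5, a chaperone that holds the ATPase ring apart from the core, fell to 24.6 and 23.0 CPM in KO, against 30.3 and 32.3 CPM in WT libraries (log2 -0.39, edgeR adjusted p = 0.0114), and the other gene that fell was Psmb10. Of these calls Psmc2 alone held without any 1 library. Without WT replicate 2 of 6 months Psmd1, Psmd7 and Psmd5 had adjusted p of 0.0597, 0.179 and 0.0786, and without WT replicate 1 Psmb1 was at 0.424. Without KO replicate 1 of 6 months Psmd7 was at 0.135 and Psmb1 at 0.0798, and without KO replicate 2 Psmd5 was at 0.116 and Psmb1 at 0.169. With unscaled library totals 2 genes rose and 2 fell, against 16.6% and 22.3% of all genes. With DESeq2 2 rose and 0 fell, against 7.87% and 7.16% of all genes. Across the 40 genes the log2 fold changes at 6 and 18 months correlated with Pearson's r of -0.404 and Spearman's rho of -0.373, and 15 genes had the same sign at both ages. These genotype comparisons share no library, but the genes within each share its libraries, so the correlation is a description. No such value was computed over all genes.

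The genotype difference itself differed with age. In the interaction, the log2 fold change of KO over WT at 18 months minus that at 6 months, 24 of the 40 genes were lower and 0 higher (1 higher at an unadjusted p under 0.05, and 0 with DESeq2), against 20.7% and 18.4% of all genes called lower and higher, and the median was -0.45 against 0.015. All 6 ATPases, 5 of 7 constitutive beta subunits, 4 of 7 alpha subunits, 8 of 11 other cap subunits and 1 of 3 chaperones were among them, and none of the 4 tested activators or the 2 tested immunoproteasome genes. The estimates were largest for Psmc2 (-0.95, SE 0.114, edgeR adjusted p = 2.91e-07), Psma6 (-0.87, edgeR adjusted p = 0.000571) and Psmb7 (-0.82, edgeR adjusted p = 0.000246). With unscaled library totals, which moved the median of all genes to 0.208, 14 were lower and 2 higher. Of all genes 14.6% were then called lower and 26.2% higher.

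The immunoproteasome genes did not follow core and cap. Psmb10, the trypsin-like immunosubunit, had 7.33 and 6.99 CPM in KO against 7.77 and 6.93 CPM in WT libraries at 18 months (log2 -0.02, edgeR adjusted p = 0.94), where the groups overlap. At 6 months it had 9.5 and 8 CPM in KO against 12.5 and 15.1 CPM in WT libraries, without overlap (log2 -0.66, SE 0.186, edgeR adjusted p = 0.00671), and it fell with age in WT (-0.92, edgeR adjusted p = 0.000161), where Psmb7, whose place it takes, rose. The call at 6 months was lost without KO replicate 2 (-0.51, edgeR adjusted p = 0.092) or WT replicate 2 (-0.51, edgeR adjusted p = 0.0819) and with DESeq2 (0.0691), while the age call in WT held without any 1 library. Its interaction did not pass (0.63, edgeR adjusted p = 0.0592) except without WT replicate 1 of 6 months (0.75, 0.033) or with unscaled library totals (0.83, 0.0135), nor did the age difference in KO (-0.29, edgeR adjusted p = 0.249).

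As a share of the reads of Psmb10 and Psmb7 together, Psmb10 reads made up 20.0% in KO (95% Clopper-Pearson interval 17.4 to 22.8) against 15.1% in WT (13.0 to 17.5) at 18 months. At 6 months the share was 21.9% in KO (18.9 to 25.2) against 35.4% in WT (31.1 to 39.8). The share was lower in KO at 6 months and higher in KO at 18 months in both libraries each time: the libraries gave 20.7% and 19.3% in KO against 15.7% and 14.7% in WT at 18 months; the libraries of 6 months gave 23.8% and 19.9% in KO against 36.2% and 34.7% in WT. At 18 months the level of Psmb10 did not pass the test (-0.02) while Psmb7, in the denominator, fell (-0.51). These intervals cover counting error only, and a share of reads is not corrected for transcript length.

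**Figure D4:**
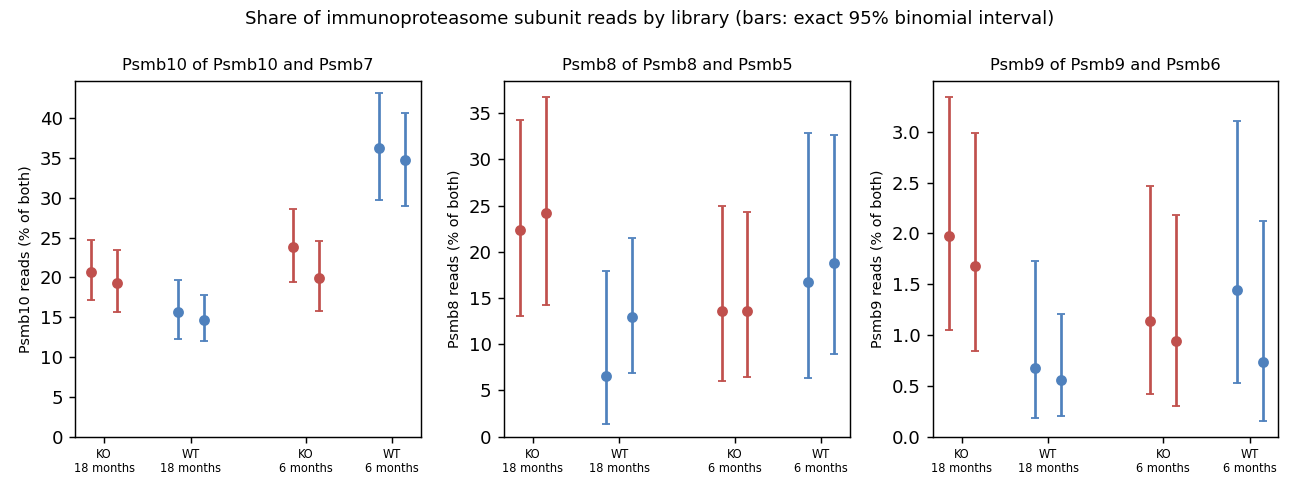
Reads of each immunoproteasome subunit as a percent of its reads plus those of the constitutive subunit it replaces (y axis from 0), for every library of KO and WT at 18 and at 6 months. Points are libraries and bars exact 95% binomial intervals. The share of Psmb10 was 36.2% and 34.7% in WT at 6 months and at most 23.8% in the other 6 libraries, while intervals of Psmb8 and Psmb9 are wide.

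Psmb8 and Psmb9 were near the limit of these libraries. Psmb8 had 1.15 and 1.29 CPM in KO against 0.376 and 0.924 CPM in WT libraries at 18 months, separate but not past the test (log2 0.77, edgeR adjusted p = 0.255), and 0.916 and 1.07 CPM in KO against 0.988 and 1.46 CPM in WT libraries at 6 months. Psmb9 had 13 and 11 reads in KO against 4 and 6 in WT libraries at 18 months, and 6 and 5 in KO against 6 and 3 in WT libraries at 6 months. Without the filter on low counts its difference at 18 months was 1.03 on the log2 scale (edgeR adjusted p = 0.331). Reads of Psmb8 were 23.3% in KO (16.3 to 31.5) against 10.8% in WT (6.17 to 17.2) of those of Psmb8 and Psmb5 at 18 months, and Psmb9 reads were 1.83% in KO (1.17 to 2.70) against 0.602% in WT (0.289 to 1.10) of those of Psmb9 and Psmb6. Both shares hold the fall of Psmb6 and the lower level of Psmb5 in their denominators. Of the 50-base words of Psmb5, 57.1% are shared with other genes, and Psmb9 overlaps Tap1 on the opposite strand over 5.8% of its exon bases.

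No activator gene was called lower at 18 months, as most core and cap genes were. None of the 4 tested passed at 18 months by edgeR, with a median of -0.03, and 0 did with DESeq2 or at an unadjusted p under 0.05. Psme2, with 333 reads in all, had an estimate near the core and cap median of -0.36 (log2 -0.40, SE 0.267, edgeR adjusted p = 0.274). Both KO libraries were below both WT libraries for Psme2 and for Psme1 (log2 -0.07), and not for Psme3 and Psme4. Psme4, which encodes a large activator linked to histone degradation and was the most read activator gene, had 129.7 and 119.0 CPM in KO against 117.5 and 117.2 CPM in WT libraries at 18 months (log2 0.09, edgeR adjusted p = 0.393; 0.23 and 0.0157 with unscaled library totals), and 106.4 and 103.9 CPM in KO against 102.4 and 85.8 CPM in WT libraries at 6 months (0.16, edgeR adjusted p = 0.117). It rose with age in both genotypes, by 0.24 in KO (edgeR adjusted p = 0.0132) and 0.32 in WT (edgeR adjusted p = 0.0012). The rise was lost without KO replicate 2 of 6 months or KO replicate 1 of 18 months in KO (adjusted p = 0.106 and 0.149), and without WT replicate 2 of 6 months in WT (0.0515). Psme4 reads over those of the 20S core were 0.314 and 0.282 in KO against 0.215 and 0.199 in WT libraries at 18 months, and 0.228 and 0.223 in KO against 0.246 and 0.192 in WT libraries at 6 months.

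Psme3, the nuclear activator, had 26.4 and 25.9 CPM in KO against 28.0 and 24.5 CPM in WT libraries at 18 months and 28.3 and 26.7 CPM in KO against 31.1 and 30.4 CPM in WT libraries at 6 months. Neither difference passed (log2 0.01 and -0.16, edgeR adjusted p = 0.963 and 0.304). Psme1, the alpha subunit of the interferon-induced activator, had 7.86 and 7.68 CPM in KO against 8.02 and 8.24 CPM in WT libraries at 18 months, and 8.36 and 10.1 CPM in KO against 9.88 and 13.2 CPM in WT libraries at 6 months. It fell with age in WT as Psmb10 did (-0.50, edgeR adjusted p = 0.0293), a call lost without WT replicate 2 of 6 months (-0.27, edgeR adjusted p = 0.339) and without either WT library of 18 months (0.0918 and 0.0905). Psme2, its partner, had 4.05 and 3.19 CPM in KO against 5.14 and 4.54 CPM in WT libraries at 18 months and 3.32 and 5.61 CPM in KO against 6.42 and 4.55 CPM in WT libraries at 6 months, and passed in no comparison. Psme2b had between 0 and 0.597 CPM.

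Among the 5 assembly factors outside the Psma to Psme names that were matched, Pomp, which drives maturation of the core, moved with the core. It fell to 25.5 and 26.0 CPM in KO at 18 months, against 36.2 and 36.5 CPM in WT libraries (log2 -0.50, edgeR adjusted p = 0.000356), stood at 33.3 and 33.9 CPM in KO against 27.5 and 25.0 CPM in WT libraries at 6 months (0.36, edgeR adjusted p = 0.0145), and had an interaction of -0.86 (edgeR adjusted p = 5.85e-05). The chaperones Psmg1 to Psmg4 passed in no comparison, with Psmg4 at 3.89 and 3.88 CPM in KO against 6.14 and 5.16 CPM in WT libraries at 18 months (edgeR adjusted p = 0.103), and Paaf1 was not analysed here. The call of Pomp at 6 months was lost without either KO library of that age or WT replicate 2 (adjusted p = 0.0545, 0.0543 and 0.0985).

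Of 12 proteasome-associated proteins, 0 rose and 2 fell in KO at 18 months, 6 rose at 6 months, and 8 rose with age in WT and 5 in KO, with 0 falling in those comparisons. Over all genes, 17.4% were called lower at 18 months, and 19.2% higher at 6 months, 28.2% with age in WT and 13.8% with age in KO, so the 2 that fell at 18 months were near the share of all genes. Fbxo7, a ubiquitin ligase adaptor that binds the core and is known from oligodendrocytes and inherited parkinsonism, fell to 191.3 and 192.3 CPM in KO at 18 months, against 223.4 and 222.2 CPM in WT libraries (log2 -0.22, edgeR adjusted p = 0.00543). Txnl1, a redox protein of the cap, had 45.2 and 40.1 CPM in KO against 57.4 and 52.0 CPM in WT libraries (-0.35, edgeR adjusted p = 0.00522). The call of Fbxo7 was lost without WT replicate 2 of 18 months (adjusted p = 0.0714), and that of Txnl1 without WT replicate 1 or KO replicate 2 (0.0796 and 0.0805). Of 11 genes for ubiquitin and its shuttles, 0 rose and 5 fell in KO at 18 months, and 2 rose and 1 fell at 6 months. Over all genes 14.7% were called higher and 17.4% lower at 18 months, and 19.2% and 19.6% at 6 months, so the counts at 6 months were near or below those of all genes. Uba1, the main ubiquitin-activating enzyme, had 217.0 and 227.4 CPM in KO against 279.5 and 279.0 CPM in WT libraries at 18 months (-0.33, edgeR adjusted p = 6.1e-05), and the polyubiquitin gene Ubb 59.1 and 61.4 CPM in KO against 84.8 and 77.0 CPM in WT libraries (-0.42, edgeR adjusted p = 0.000128). Neither overlapped between the groups.

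Of 10 regulators of proteasome genes, 2 rose and 1 fell in KO at 18 months, and 3 rose and 2 fell at 6 months. These counts were about those of all genes, of which 14.7% were called higher and 17.4% lower at 18 months, and 19.2% and 19.6% at 6 months. Nfe2l1 had 78.0 and 74.5 CPM in KO against 81.3 and 86.9 CPM in WT libraries at 18 months (log2 -0.14, edgeR adjusted p = 0.145), and fell with age in KO by 0.28 (edgeR adjusted p = 0.00592). It is named here for its known role and was chosen after its values were seen. Nfe2l2, which controls the oxidative stress response, fell at both ages in KO, to 58.5 and 60.8 CPM against 70.7 and 68.7 CPM in WT libraries at 18 months (-0.22, edgeR adjusted p = 0.0241) and to 53.3 and 51.1 CPM against 61.2 and 63.5 CPM at 6 months (-0.26, edgeR adjusted p = 0.0184). Mafg, a small partner of both factors, had 89.7 and 89.4 CPM in KO against 75.1 and 77.7 CPM in WT libraries at 18 months (0.23, edgeR adjusted p = 0.0264), and fell in KO at 6 months (-0.48, edgeR adjusted p = 3.05e-05). The calls of Nfe2l2 and Mafg at 18 months were lost without each of the 4 libraries of that age (adjusted p up to 0.161 and 0.108), and that of Nfe2l2 at 6 months without either KO library or WT replicate 2 (up to 0.165).

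Of 15 tested interferon and MHC class I genes, with which the immunoproteasome genes are commonly induced, 6 fell and 0 rose in KO at 6 months, against 19.6% and 19.2% of all genes, and 9 did not pass. At 18 months 1 rose, the peptide transporter gene Tap1 (0.69, edgeR adjusted p = 0.036). The MHC class I gene H2-D1 fell (-0.44, edgeR adjusted p = 0.00354) and was the only 1 to do so. Of all genes 14.7% were called higher and 17.4% lower at that age, so these counts were below the share of all genes. With age in WT 8 fell and 2 rose, against 30.8% and 28.2% of all genes. Tap1, a neighbour of Psmb9, had 4.96 and 5.61 CPM in KO against 2.88 and 3.54 CPM in WT libraries at 18 months and 4.81 and 3.58 CPM in KO against 5.93 and 7.47 CPM in WT libraries at 6 months (-0.67, edgeR adjusted p = 0.0471). Its call at 18 months was lost without each of the 4 libraries of that age (adjusted p up to 0.167), that at 6 months without 7 of the 8 libraries, all but WT replicate 1 of 6 months (up to 0.303), and that of H2-D1 without WT replicate 2 (0.188). The list summed to 176.6 and 177.4 CPM in KO against 176.2 and 191.7 CPM in WT libraries at 18 months, and to 165.5 and 186.0 CPM in KO against 218.1 and 223.0 CPM in WT libraries at 6 months, so WT at 6 months was highest, as for Psmb10.

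Markers of other cell types moved between the groups in the same libraries. All 16 oligodendrocyte markers were detected; their summed level was 29308 to 29767 CPM in KO against 43065 to 43129 CPM in WT libraries at 18 months, and 31921 to 32818 CPM in KO against 14679 to 14707 CPM in WT libraries at 6 months. In KO 15 of the 16 fell at 18 months and 16 rose at 6 months, and 16 rose with age in WT, so the order of their group means was that of the core and cap sum, in which KO at 18 months and WT at 6 months overlapped. The 12 astrocyte markers went the other way, with sums of 12839 to 12921 CPM in KO against 8384 to 8413 CPM in WT at 18 months, and 10599 to 10625 CPM in KO against 15051 to 15100 CPM in WT at 6 months. Sums of 12 microglial markers were 78.4 to 80 CPM in KO against 175.9 to 188.2 CPM in WT at 18 months and 172.0 to 172.6 CPM in KO against 128.7 to 136.3 CPM in WT at 6 months. The 10 oligodendrocyte precursor markers summed to 2487 to 2587 CPM in KO against 3120 to 3170 CPM in WT at 18 months, and 2899 to 3044 CPM in KO against 4785 to 4839 CPM in WT at 6 months. Pericyte and smooth muscle markers (10) summed to 1854 to 1889 CPM in KO against 973 to 993 CPM in WT at 18 months, and 2540 to 2606 CPM in KO against 2152 to 2177 CPM in WT at 6 months. Both lists were separate between the genotypes at both ages. The 10 GABA neuron markers, of which 8 of 9 tested fell in KO at 6 months, summed to 839.5 to 864.6 CPM in KO against 596.3 to 644.4 CPM in WT at 18 months, and 753.3 to 778.1 CPM in KO against 1249 to 1288 CPM in WT at 6 months. Excitatory neuron markers (10) summed to 52.1 to 55.9 CPM in KO against 85.3 to 87.1 CPM in WT at 18 months, and 223.4 to 236 CPM in KO against 241.4 to 247.2 CPM in WT at 6 months. The 10 markers listed for parvalbumin interneurons summed to 545.2 to 548.9 CPM in KO against 567.8 to 597.5 CPM in WT at 18 months. At 6 months they summed to 497.7 to 507.7 CPM in KO against 464.7 to 495.8 CPM in WT. Of the 8 tested, 2 rose and 3 fell in KO at 18 months (median log2 fold change -0.23), and 2 and 4 at 6 months (-0.84). With age in WT 2 rose and 5 fell (-1.57), while the sum rose. Of all genes 14.7% rose and 17.4% fell at 18 months, 19.2% and 19.6% at 6 months, and 28.2% and 30.8% with age in WT. The GABA neuron sums, like those of astrocytes, were above WT in KO at 18 months and below WT in KO at 6 months. At 18 months, however, 2 of the 9 tested GABA neuron markers rose and 2 fell in KO, with a median log2 fold change of -0.43. Their sum thus went against their median. Of the 12 astrocyte markers 11 rose and 0 fell, with a median of 1.05. Blood leukocyte markers (10) summed to 3.02 to 3.44 CPM in KO against 6.39 to 7.27 CPM in WT at 18 months, and 62.9 to 66.1 CPM in KO against 5.76 to 6.01 CPM in WT at 6 months. The 6 red blood cell markers summed to 36.3 to 37.4 CPM in KO against 70.3 to 81.5 CPM in WT at 18 months, and 119.7 to 128.8 CPM in KO against 32.2 to 37.4 CPM in WT at 6 months. Endothelial markers (10) summed to 121.5 to 123.4 CPM in KO against 107.2 to 112.1 CPM in WT at 18 months, and 143.9 to 145.9 CPM in KO against 136.9 to 144.9 CPM in WT at 6 months. The part of these differences in the proteasome results was not tested, and the genotype of a pool and its cell make-up cannot be told apart here.

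**Figure D5:**
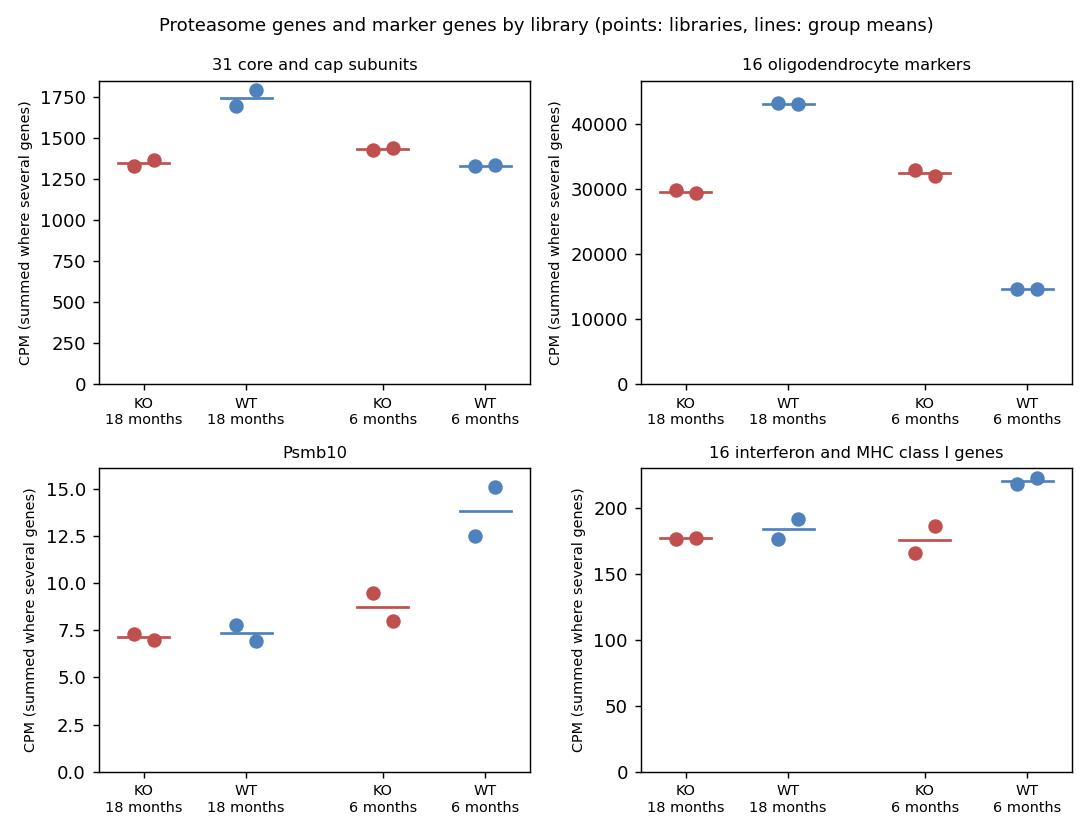
Summed CPM of the 31 core and cap genes, of 16 oligodendrocyte markers, of Psmb10 and of 16 interferon and MHC class I genes (y axes from 0) in each library of KO and WT at 18 and at 6 months, with lines at group means. The means of core and cap and of the oligodendrocyte markers are both highest in WT at 18 months and lowest in WT at 6 months, and Psmb10 and the interferon list are both highest in WT at 6 months. In core and cap, KO at 18 months (1328 and 1365 CPM) and WT at 6 months (1330 and 1334 CPM) overlap, and in the oligodendrocyte markers they do not. Other marker lists are not drawn.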

How the data were processed

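RNA-seq libraries of sorted tdTomato cells from mouse cortex were analysed, 2 a group in 4 groups of genotype and age. Per the submitters' processing notes, featureCounts 1.5.0-p1, STAR 2.5.2a, CASAVA 1.8.2 and the build mm10 were used; the sources used here name no annotation release, strand setting or rule for multiply matching reads. The authors deposited raw read counts per gene, 1 file a library, with totals of 6008175 to 13551218.

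Gene IDs were matched to GENCODE M21, which named 55480 of 55573. Genes were filtered with filterByExpr (minimum count 10), scaled with TMM and tested with edgeR 4.0.16 in R 4.3.3 by the quasi-likelihood test, all 4 groups in 1 fit, with Benjamini-Hochberg adjustment over 18205 genes and a threshold of 0.05. CPM are counts scaled to these totals, and SE is the log2 fold change over the square root of F. On simulated data for KO against WT at 18 months (17540 genes), 57% of 1.3-fold and 100% of 2.0-fold changes were recovered. There 100 genes were changed by each fold, all above 10 CPM, and 14 unchanged genes were called. In the data 2679 genes were called higher and 3165 lower in that comparison, so recovery may differ. Alternatives were other scalings, DESeq2 1.42.0, no filter, only the groups compared, a replicate block, and leaving out each library.

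Values in every library are given for the catalytic beta subunits and their immunoproteasome counterparts, the activators, and in each other class the 3 genes of at least 10 CPM with the smallest p in KO against WT at 18 months, and from each pathway list the 2 genes with the smallest such p. Psma3, Psmb1, Psmc2, Psmd1, Psmd7, Psmd11 and Nfe2l1 were added after their values were seen. Members and lists were chosen with earlier results of these data known. Replicates of a group differed by more than counting noise, so none was merged for the tests. The group shares of immunoproteasome reads pool the reads of the 2 libraries. Their intervals leave out the spread between libraries and are too narrow for it. Intervals are exact (Clopper-Pearson, 95%).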

Additional observations from a re-analysis of the deposited data

Results flagged for a closer look

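Many of the genes given with library values were chosen by their p at 18 months, which enters the interaction, or after their values were seen. Their number among the calls is thus no support. Over all 40 tested genes 24 were called lower, against 20.7% of all genes. For 18 of the proteasome genes given with library values, the genotype difference itself differed between the ages by the interaction test (edgeR, KO over WT at 18 months minus that at 6 months, log2). The values were -0.72 for Psma2, -0.87 for Psma6, -0.63 for Psma7, -0.71 for Psmb1, -0.76 for Psmb2, -0.64 for Psmb4, -0.45 for Psmb6 and -0.82 for Psmb7 in the core. In the cap they were -0.68 for Psmc1, -0.95 for Psmc2, -0.47 for Psmc3, -0.39 for Psmc4, -0.54 for Psmd1, -0.49 for Psmd2, -0.30 for Psmd4, -0.56 for Psmd7 and -0.31 for Psmd8, and the chaperone gene Psmd9 had -0.57. Without each library in turn 13 of these calls held. Psmb6 was lost without WT replicate 2 of 18 months (-0.35, adjusted p = 0.0537), and Psmd9 without that library (-0.30, 0.273) or replicate 1 of either group of 6 months (0.0583 and 0.0585). Psmc4 was lost without KO replicate 2 of 6 months, KO replicate 1 of 18 months or WT replicate 2 of 18 months (0.0873, 0.0758 and 0.136). Psmd4 was lost without 5 and Psmd8 without 7 of the 8 libraries (adjusted p up to 0.217 and 0.21).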

How the results depend on the processing

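Counts are of proteasome genes called higher and lower among 40, or among 44 with DESeq2 and without a filter on low counts. With only the groups compared, 39 were tested for age in WT. With unscaled library totals, 2 were higher at 6 months, 1 higher and 14 lower at 18 months, 5 higher and 0 lower with age in KO, and 2 higher and 14 lower in the interaction; summed levels became 1647 CPM in KO and 1874 CPM in WT at 18 months, and 1615 CPM in KO and 1580 CPM in WT at 6 months. RLE size factors gave sums of 1637 CPM in KO and 1536 CPM in WT at 6 months. DESeq2 called 2 higher and 0 lower at 6 months, 0 lower with age in KO and 1 lower with age in WT. Of all genes it called 7.87% higher and 7.16% lower at 6 months, and 6.02% and 12.5% lower with age in KO and WT. Without a filter 2 were lower with age in KO and 1 in WT, against 8.87% and 16.3% of all genes. With only the groups compared 1 was lower with age in WT, against 30.8% of all genes. Among the 23 tested genes with under 5% shared sequence and no overlapping gene, a choice made after seeing the data, 15 were lower at 18 months, 1 higher and 4 lower with age in KO, 15 higher and 1 lower with age in WT, and 15 lower in the interaction. Of all genes in that fit 17.4% were lower at 18 months and 20.7% in the interaction. With age 13.8% were higher and 17.9% lower in KO, and 28.2% and 30.8% in WT.

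Leaving out each library gave 0 to 0 higher and 15 to 25 lower at 18 months, 3 to 6 higher and 0 to 3 lower at 6 months, 0 to 2 higher and 0 to 7 lower with age in KO, 18 to 24 higher and 1 to 2 lower with age in WT, and 0 to 1 higher and 17 to 22 lower in the interaction. None were lower at 6 months without KO replicate 2 or WT replicate 2 of that age. Sums ranged from 1556 to 1582 CPM in KO and 1919 to 2021 CPM in WT at 18 months, and from 1639 to 1647 CPM in KO and 1546 to 1553 CPM in WT at 6 months. The causes were not tested. With the replicate number as a block, counts were 0 higher and 24 lower at 18 months, and 6 and 2 at 6 months. With age they were 2 and 10 in KO and 24 and 2 in WT, and in the interaction 0 and 24. Of all genes 15.9% and 18.9% were called at 18 months, and 20.2% and 20.5% at 6 months. With age 15.5% and 19.1% were called in KO and 29.0% and 31.5% in WT, and in the interaction 19.4% and 21.8%. Deviations of same-numbered libraries correlated between -5.24e-06 and 0.0758, so the numbers were not taken as pairs. No value changed sign among called results. Depth limits Psmb8, Psmb9, Psme2b, Psma8 and Psmb11.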
